A study of Mus musculus with 6 samples.

Results

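The genes described here carry the signals of the transforming growth factor beta (TGF-beta), activin and bone morphogenetic protein (BMP) family: 42 genes for its ligands, receptors, Smad proteins, antagonists, nuclear corepressors, ubiquitin ligases and Id target genes. They were listed by name as genes of the pathway, with earlier results of these data known, and each was then looked up on the arrays. All 42 had at least 1 probe set, 92 in total, on a platform where 16399 genes could be measured by the same filter. A gene counted as measured when 3 or more of the 6 arrays read over 16, and 40 of the 42 genes passed it. Those that did not pass were Inhba and Nog. Of the 40, 2 (Bmp4 and Gdf11) had fewer than 3 ICAM1-negative arrays above 16 and passed only with the ICAM1-positive ones.

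Dissociated olfactory epithelium of CD1 mice was stained with a fluorescein-coupled antibody to ICAM1, a cell adhesion protein, and separated by flow cytometry into ICAM1-positive and ICAM1-negative cells. Each replicate was made from the animals of 1 litter, and 3 litters of postnatal days 21, 22 and 24 each gave both sorts, so the groups hold 3 arrays each. No group carried a transgene or received a treatment, and both share the strain, the dissociation and 2 rounds of RNA amplification. Litter and age cannot be told apart. ICAM1 is carried by horizontal basal cells, the reserve stem cells of this epithelium, and also by immune and endothelial cells, whereas the ICAM1-negative sort holds whatever else the tissue contains.

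Ligands of this family are secreted, often in a latent form, and bind a complex of type II and type I receptor kinases. TGF-beta and activin receptors phosphorylate Smad2 and Smad3, BMP receptors phosphorylate Smad1, Smad5 and Smad9, and either kind of Smad enters the nucleus with Smad4. Smad6 and Smad7 block the receptors in a feedback loop, and the Id genes are classical targets of BMP signals. In the olfactory epithelium, BMPs, Gdf11, activin and follistatin are known as regulators of how many neurons the progenitors produce.

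Icam1 averaged 20.8 ± 10.9 in the ICAM1-negative and 6974 ± 237 in the ICAM1-positive arrays (SD, n = 3), which follows the sample titles, while the free-text sample descriptions name the opposite population. Markers of horizontal basal cells were higher in the ICAM1-positive sort in 10 of 10 genes, of which Cdh3 lost its call with litter as a paired block (adjusted p = 0.0944). Their summed intensity ran from 801.3 to 1187 in the ICAM1-negative and from 97499 to 101514 in the ICAM1-positive arrays. Both the 10 genes and the sums include Icam1 itself, whose direction was set by the sort. Markers of mature neurons were lower in 9 of 9 genes, with sums of 92797 to 106292 against 6189.8 to 12119.7. Those of immature neurons were lower in 5 of 5 genes and those of globose basal cells in 3 of 4 measured. Of 6 fibroblast markers 1 was higher (Dcn), as was 1 of 6 for pericytes and smooth muscle (Tagln). Either share is 16.7%, while 20.6% of all genes were higher. Macrophage markers were higher in 10 of 12 measured genes, with sums of 1103 to 1424 against 18014.9 to 22952.6, and Itgam alone of them stayed below the array median on every array. Sustentacular cell markers were higher in 3 of 5 genes, and their sums of 14756 to 21520.1 and 27294 to 38128 lay closer together. No endothelial marker of the 6 measured passed the test, 5 of them (Cdh5, Kdr, Tek, Emcn and Cldn5) were below the array median on every array, and no marker of any list was at 0. Krt15, Col17a1, Icam1, C1qa, C1qc, Aif1 and Tagln had fewer than 3 ICAM1-negative arrays above 16. They passed the filter only with the ICAM1-positive arrays, so their calls are a description. Markers of horizontal basal cells, mature and immature neurons, globose basal cells, macrophages and in part sustentacular cells thus moved with the sorts. Their part in the results on the pathway genes was not tested. In sorted bulk RNA, fewer cells of a type and less RNA per cell cannot be told apart.

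Of the 40 genes measured, 24 were higher in ICAM1-positive cells, 3 were lower and 13 did not pass the test. The test was limma on log2 intensity, with Benjamini-Hochberg adjustment over 38694 probe sets and a threshold of 0.05. Both directions together make 67.5% of the 40, while 41.4% of all 16399 genes passed. The genes that were higher make 60% against 20.6% of all genes, and the genes that were lower make 7.5% against 20.8%. The list was chosen with earlier results of these data known, so these shares are a description and not a test. The median log2 difference was 1.02 for the pathway genes and -0.06 for all genes. Low intensities on the dimmer side leave the size of some differences uncertain. With readings under the array median set to that median, 18 of the 24 genes were more than 2-fold, 10 more than 4-fold and 4 more than 8-fold higher, and 2 of the 3 lower genes were more than 2-fold lower. As measured, the counts of higher genes were 19, 14 and 6. All 27 differences had the same sign in each of the 3 litters, which is likely for genes picked by a test on these same arrays and adds no separate support. Of the 27, 19 passed the test in the same direction in all 9 fits that left out a litter or an array, and the others are named where they are described. The 24 and the 19 include Bmp4, which passed the filter only with its ICAM1-positive arrays, so its call is a description.

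**Figure D1:**
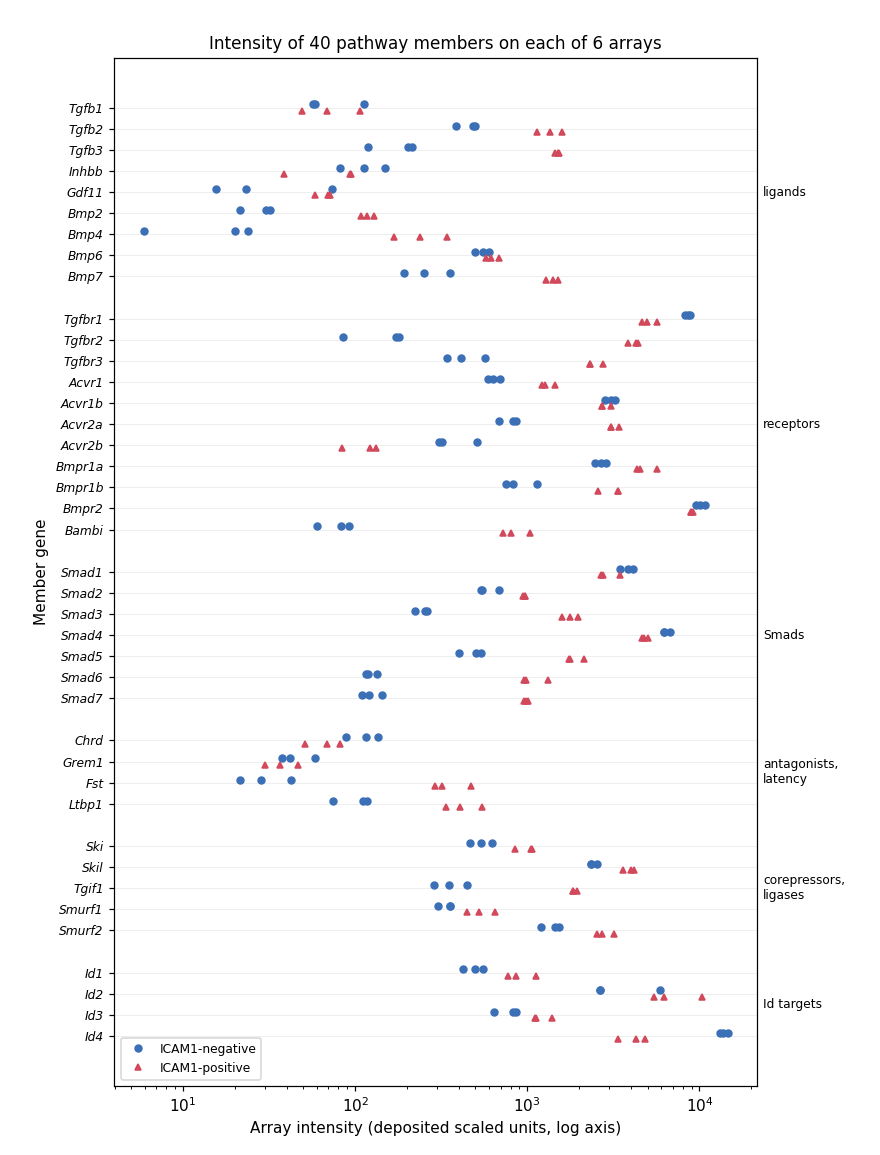
Intensity of the 40 measured pathway genes on each of the 6 arrays, on a log axis, with circles for the 3 ICAM1-negative and triangles for the 3 ICAM1-positive arrays, grouped by role. The sorts lie far apart for Tgfbr2, Bmp4, Fst, Bambi and Smad6, and Id4 and Acvr2b are the clearest genes with circles to the right.

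**Figure D2:**
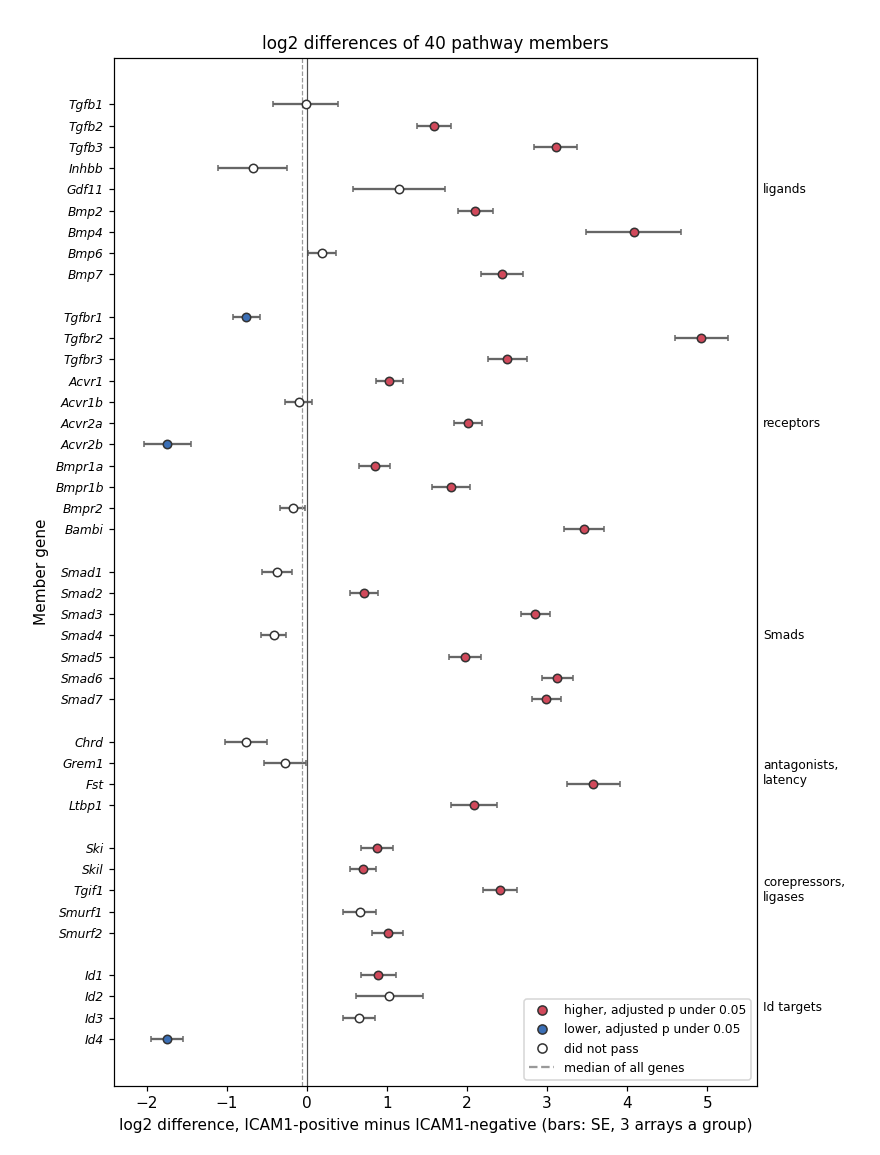
Differences of the same 40 genes on the log2 scale, ICAM1-positive minus ICAM1-negative, with the standard error of the fit over 3 arrays a group; filled points passed the test, and the dashed line is the median of all genes at -0.06. Tgfbr2 has the highest value at 4.92, and Id4 at -1.75 and Acvr2b at -1.74 the lowest.

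Among the ligands, 5 of the 9 measured genes rose, 0 fell and the median log2 difference was 1.58. The called share was 55.6%, against 41.4% of all genes. Tgfb3, 1 of the 3 mammalian TGF-beta isoforms, read 202.8, 213.6 and 118.8 in the ICAM1-negative sorts and 1444.3, 1498.6 and 1519.7 in the ICAM1-positive sorts of litters 1, 2 and 3. Every positive array was far above every negative one, a rise of 3.11 ± 0.27 on the log2 scale (standard error; adjusted p = 0.00053). Tgfb2, another isoform, read 384.4, 494.5 and 482.4 against 1140.3, 1589.5 and 1364.5. It rose by 1.58 ± 0.21 (adjusted p = 0.00241), and 2 other probe sets rose by 1.49 and 1.36. The dimmest of its 4 probe sets passed as measured (1.91) but not with low readings set to the array median (0.02, adjusted p = 0.998). Tgfb1, the isoform best known from platelets and immune cells, could not be read in one way. Its brighter probe set read 112.9, 56.9 and 58.1 against 107.2, 68.3 and 49.4 and overlapped entirely (-0.02 ± 0.41, adjusted p = 0.981). The dimmer one read 37.4, 31.4 and 6.1 against 172.9, 103.9 and 201.9 without overlap and passed as measured (2.99 ± 0.74). It was kept only with its ICAM1-positive arrays, with fewer than 3 negative ones above 16, so its call is a description. That call was lost with litter as a paired block and with low readings set to the array median (0.68). With both probe sets averaged the difference of 1.49 passed, but that mean includes the dimmer probe set. Tgfb1 thus has no call that holds across probe sets.

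Of the BMP ligand genes, Bmp4 and Bmp2 lay below the array median in every ICAM1-negative array, and Bmp7, by its brightest probe set, did not. Bmp4, a BMP of epithelial and mesenchymal signalling, read 20.1, 23.8 and 5.9 in the ICAM1-negative and 238.5, 168.2 and 341.1 in the ICAM1-positive arrays. All 3 negative arrays were below their array median, so its log2 difference of 4.08 ± 0.59 has no exact size. Raising them to that median, which lay between 87.9 and 102.8, leaves it at least 2.49-fold higher (log2 1.31). Bmp4 was kept only with its ICAM1-positive arrays, so its call is a description and no p-value is given. Bmp7, which can pair with BMP2 or BMP4 in heterodimers, was brighter throughout, at 250.7, 355.2 and 193.4 against 1283.7, 1504.5 and 1404.1. It rose by 2.43 ± 0.26 (adjusted p = 0.00111), and a second probe set rose by 3.53 ± 0.28, while the other, near background, did not pass (2.43 ± 1.28, adjusted p = 0.199). Bmp2, the closest relative of Bmp4, read 21.4, 30.4 and 31.9 against 129.5, 108.0 and 117.7. Its arrays did not overlap and it passed at 2.10 ± 0.22 (adjusted p = 0.000999), but once its dim arrays were set to their array median it kept 0.29 and lost the call (adjusted p = 0.0951), so no size can be given.

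The 4 ligand genes that did not pass were Tgfb1, Bmp6, Gdf11 and Inhbb. Bmp6, a BMP also known from iron regulation, was clearly measured, with 500.3 to 602.5 in ICAM1-negative and 576.3 to 689.7 in ICAM1-positive cells (0.19 ± 0.17, adjusted p = 0.456). Gdf11, which limits neuron production in this tissue, read 73.3, 15.5 and 23.3 against 71.7, 69.3 and 58.8, all below the array median. Its difference of 1.15 ± 0.58 did not pass (adjusted p = 0.179). It passed without litter 1 (1.75) or without the ICAM1-negative array of that litter (1.80), in which it was as bright as in the positive sorts. Gdf11 was kept only with its ICAM1-positive arrays, so these passes are a description. Inhbb encodes an activin and inhibin subunit. It read 149.8, 81.9 and 112.5 against 94.2, 93.4 and 38.5, with overlap (-0.68 ± 0.43, adjusted p = 0.287), whereas a dimmer probe set passed in the other direction (1.30 ± 0.40, adjusted p = 0.0498), but not with the paired block (0.0537) or with low readings set to the array median (0.998). Inhba, the other activin subunit gene, did not pass the filter, and its 2 probe sets averaged 20.7 and 13.5 in ICAM1-negative and 21.9 and 14.1 in ICAM1-positive cells.

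Receptor genes split by identity. Of the 11 receptor and co-receptor genes, 7 rose and 2 fell, a called share of 81.8% against 41.4% of all genes. Partners of a pair could move apart. Tgfbr2, the type II receptor that binds TGF-beta first, had the largest difference of all 40 genes. It read 84.7, 179.9 and 172.3 in ICAM1-negative against 3872.8, 4310.6 and 4400.6 in ICAM1-positive cells, or 4195 ± 282 over the positive arrays (SD, n = 3). That is a rise of 4.92 ± 0.33 on the log2 scale (adjusted p = 0.000269), 30.4-fold, or 4.83 with the single array below its median set to it. A second Tgfbr2 probe set lay below the array median on every array and gives no size. Tgfbr1, the type I receptor that TGFBR2 activates, went the other way, from 8561.8, 8853.2 and 8295.1 to 4652.1, 5657.9 and 4957.6. It fell by 0.76 ± 0.17 (adjusted p = 0.0161), but not without litter 1 (adjusted p = 0.147) or litter 3 (0.127), nor without the ICAM1-negative array of litter 1 (0.0513) or the ICAM1-positive array of litter 1 (0.061) or 3 (0.0618). Tgfbr3 encodes betaglycan, the co-receptor that presents TGF-beta2 and inhibin. Its arrays stood at 413.4, 342.7 and 569.5 against 2301.8, 2320.4 and 2765.2, with no overlap and a rise of 2.51 ± 0.24 (adjusted p = 0.00075). A second Tgfbr3 probe set, at about 50 in both sorts, did not pass (-0.16 ± 0.51, adjusted p = 0.843), and the mean of both gave 1.17.

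The activin type II receptors differed in direction. Acvr2a read 828.5, 856 and 686.2 in ICAM1-negative and 3083.6, 3394.8 and 3067.7 in ICAM1-positive cells. It rose by 2.01 ± 0.17 (adjusted p = 0.000534) in every litter, although a second probe set at 504.1 and 721.8 on average did not pass (0.53 ± 0.18, adjusted p = 0.0712). Acvr2b, its paralog, read 511.5, 321.4 and 308.6 against 132.5, 84 and 121.6 and was lower in every litter. The fall was 1.74 ± 0.29 on the log2 scale (adjusted p = 0.00601), and a second probe set fell by 1.83 ± 0.24 as measured. All positive arrays of the second were below the array median, which leaves it at least 1.31-fold lower. Within litters 1, 2 and 3 the change of Acvr2a exceeded that of Acvr2b by 3.85, 3.92 and 3.50 (mean 3.76 ± 0.22, SD, n = 3), which is a description and not a test. The promoters of this pair are shown because the genes moved in opposite directions. Each is the 250 bases before the RefSeq transcription start (GRCm38.p6), Acvr2a at chr2:48813859-48814108 on the plus strand and Acvr2b at chr9:119401928-119402177 on the plus strand. Neither holds GGCGCC, a GC-rich motif that Smad proteins are known to bind and that would be printed in capitals.
Acvr2a: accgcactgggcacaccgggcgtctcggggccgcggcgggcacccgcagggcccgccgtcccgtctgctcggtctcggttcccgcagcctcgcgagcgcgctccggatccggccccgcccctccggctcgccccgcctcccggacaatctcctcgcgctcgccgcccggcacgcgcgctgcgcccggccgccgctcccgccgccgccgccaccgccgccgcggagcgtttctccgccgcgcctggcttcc
Acvr2b: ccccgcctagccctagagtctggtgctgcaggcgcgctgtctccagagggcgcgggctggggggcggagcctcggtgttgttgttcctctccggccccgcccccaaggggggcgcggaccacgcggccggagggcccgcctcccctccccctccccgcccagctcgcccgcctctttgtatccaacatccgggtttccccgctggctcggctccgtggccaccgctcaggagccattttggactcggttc

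Both windows are rich in G and C, at 82% for Acvr2a and 72.8% for Acvr2b, against a median of 52.4% over all 32851 promoter windows. Acvr1 encodes ALK2, a type I receptor used by BMPs and activin A. It read 593, 697.5 and 629.1 against 1264.3, 1447.6 and 1210.2, a rise of 1.03 ± 0.17 (adjusted p = 0.00576) that missed the threshold without litter 1 (0.0769) or litter 3 (0.0643). Of its dimmer probe sets, 1 passed (1.41 ± 0.41, adjusted p = 0.0417) but not with the paired block (0.104) or with low readings set to the array median (0.633), and 1 did not pass (-0.27 ± 0.39). Acvr1b encodes ALK4, the type I receptor of activin. Its brightest probe set read 2812.9, 3233.2 and 3052.2 against 3067.6, 2706.7 and 2710.9, with overlap (-0.10 ± 0.16, adjusted p = 0.682). A dim probe set of the same gene passed downward as measured (-1.13 ± 0.22, adjusted p = 0.0112), as did the mean of both (-0.61, adjusted p = 0.022), but that probe set lay below the array median on every array.

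BMP receptor genes were bright in both sorts. Bmpr1a, the BMP type I receptor ALK3, read 2481.1, 2869.6 and 2686.1 in ICAM1-negative and 4512.5, 5697.9 and 4321.1 in ICAM1-positive cells. It rose by 0.85 ± 0.19 (adjusted p = 0.0167), but not without litter 1 (0.126), litter 2 (0.0539), litter 3 (0.0992) or the ICAM1-negative array of litter 1 (0.0585). Of its 5 other probe sets 1 passed (0.71 ± 0.20, adjusted p = 0.0347); with the paired block it did not (0.0521), and another did (0.0435). Bmpr1b, the type I receptor ALK6, read 1132.7, 750.7 and 828.3 against 3368.3, 2588.5 and 3389. It rose by 1.80 ± 0.23 (adjusted p = 0.00225), and its change exceeded that of Bmpr1a by 0.71, 0.80 and 1.35 in the 3 litters. Its 2 other probe sets rose as well (1.71 and 1.29 as measured). Their negative arrays were all below the array median, which leaves them at least 2.30-fold and 1.40-fold higher. Bmpr2, the type II receptor of BMPs, read 10812.8, 9583.4 and 10084.9 against 9185.6, 8893.3 and 8890.4. The arrays did not overlap, yet the difference was small (-0.17 ± 0.16, adjusted p = 0.438), while a dimmer probe set fell (-1.03 ± 0.22, adjusted p = 0.0155) and the mean of its probe sets passed as well (-0.59, adjusted p = 0.0254). Bambi encodes a receptor without a kinase domain that dampens these signals. It read 91.5, 60.4 and 82.5 against 806.8, 1039.6 and 720, at least 8.78-fold higher (log2 difference 3.46 ± 0.25, adjusted p = 0.000316).

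**Figure D3:**
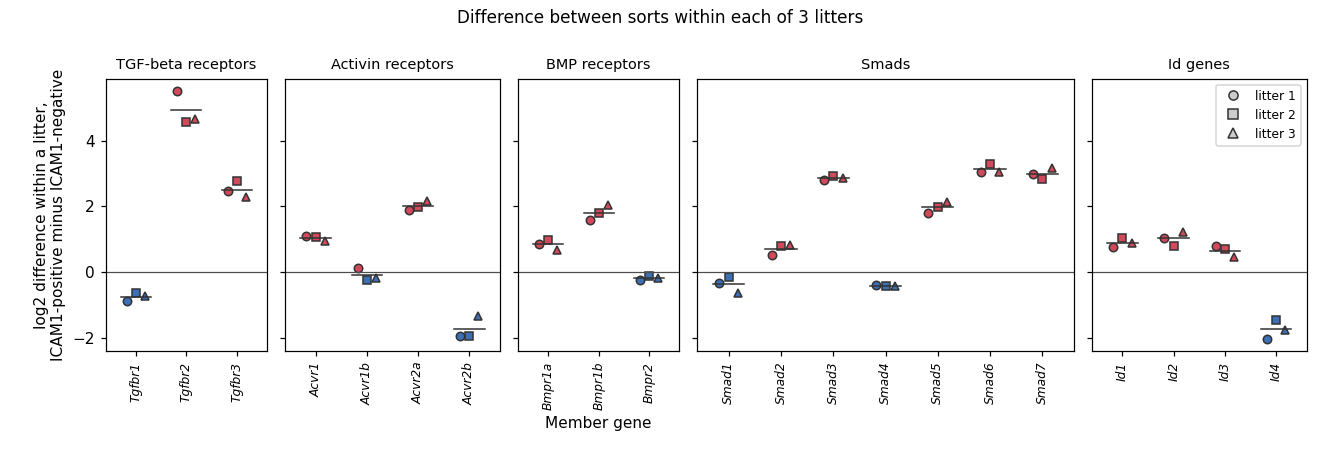
Difference between the sorts of each litter on the log2 scale for receptors, Smads and Id genes, with a circle, square and triangle for litters 1, 2 and 3 and a line at their mean; red lies above and blue below 0. Acvr2a and Acvr2b lie on opposite sides in all 3 litters, as do Tgfbr2 and Tgfbr1, and Id4 lies below 0 while Id1, Id2 and Id3 lie above it.

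Smad genes fell into an inhibitory pair that rose strongly and receptor-regulated members that differed from one another. Smad6, the inhibitor of BMP receptors, read 119.3, 133.9 and 115.8 in ICAM1-negative and 984.1, 1311.1 and 958.4 in ICAM1-positive cells. It rose by 3.13 ± 0.20 (adjusted p = 0.000239), 8.74-fold. Smad7, the inhibitor of TGF-beta and BMP receptors, read 119.9, 142.5 and 109.9 against 951.9, 1011.6 and 982.3. Its rise was 2.99 ± 0.18 (adjusted p = 0.000201), and the positive arrays of both inhibitors were all above all negative ones. A second, dim Smad7 probe set was at least 2.23-fold higher. It was kept only with its ICAM1-positive arrays, so that value is a description.

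Of the Smads that TGF-beta and activin receptors phosphorylate, Smad3 changed more than Smad2 by the brightest probe set of each. Smad3 read 255.3, 262.4 and 221.4 against 1765.2, 1981.8 and 1598.9 and rose by 2.85 ± 0.18 (adjusted p = 0.00023), whereas a dim second probe set did not pass (0.44 ± 0.26, adjusted p = 0.25) and the mean of both was 1.65. Smad2 read 683.6, 539.2 and 542.6 against 972.1, 940.1 and 965.7, a rise of 0.71 ± 0.18 (adjusted p = 0.0245). A second Smad2 probe set gave 1.52 ± 0.18 (adjusted p = 0.00163). The first missed the threshold in all 3 fits without a litter (adjusted p = 0.0984, 0.102 and 0.178 for litters 1, 2 and 3). It also missed it without the ICAM1-positive array of litter 1 (0.0757), 2 (0.0572) or 3 (0.08) and without the ICAM1-negative array of litter 2 (0.0671) or 3 (0.0712). By these brightest probe sets the change of Smad3 exceeded that of Smad2 by 2.14 ± 0.13 (SD over 3 litters, a description). The second probe sets gave the other order, 0.44 for Smad3 and 1.52 for Smad2, so the contrast depends on the probe set.

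Among the BMP-activated Smads the same kind of contrast appeared. Smad5 read 502.6, 540.4 and 402.7 against 1747.3, 2145.4 and 1772.2 and rose by 1.97 ± 0.20 (adjusted p = 0.000871), with 2 further probe sets at 1.34 and 0.84. Smad1 was bright in both sorts, at 3443.5, 3848.6 and 4141.8 against 2745.4, 3459.2 and 2679.3, with overlap (-0.37 ± 0.19, adjusted p = 0.189), and its 2 other probe sets did not pass. Smad4, the common partner of all receptor-regulated Smads, read 6241.4, 6248 and 6761.1 against 4772.4, 4665.7 and 4999.2. All positive arrays were below all negative arrays, but the difference of -0.41 ± 0.15 missed the threshold (adjusted p = 0.0888), as did its 2 other probe sets at -0.50 and -0.34. Smad4 passed with a variance trend (adjusted p = 0.014), a stricter filter (0.0473) or low intensities raised (0.0143), at the same log2 difference.

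Secreted antagonists and latency proteins were measured by 4 genes, of which 2 rose and 0 fell. That share of 50% lies near the 41.4% of all genes called. Fst encodes follistatin, which binds activin and Gdf11. It read 28.4, 42.5 and 21.3 in ICAM1-negative and 320.3, 468.6 and 292.3 in ICAM1-positive cells and was at least 3.66-fold higher (log2 difference 3.58 ± 0.33, adjusted p = 0.000646). A second, dim probe set passed as measured (2.80 ± 0.39) but not with low readings set to the array median (0.29). It was kept only with its ICAM1-positive arrays, so its call is a description. Ltbp1 encodes a matrix protein that holds TGF-beta in its latent form. It read 74.4, 117.8 and 111.2 against 404.9, 548.3 and 337.2, a rise of 2.09 ± 0.28 (adjusted p = 0.00258), while 2 probe sets near background did not pass. Chrd, the gene of the BMP antagonist chordin, read 116.1, 88.4 and 135.9 against 51.4, 68.7 and 81.6. No positive array reached the lowest negative one, and the difference of -0.76 ± 0.26 did not pass (adjusted p = 0.0735), although it did with the stricter filter (0.0399). Grem1, the gene of the BMP antagonist gremlin, was dim throughout, from 37.6 to 58.1 in ICAM1-negative and from 30.1 to 46.6 in ICAM1-positive cells (-0.28 ± 0.26, adjusted p = 0.467). Nog, the gene of the BMP antagonist noggin, did not pass the filter and read 1.3, 15 and 3.9 against 32, 8.7 and 15.3.

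Of the 5 corepressor and ubiquitin ligase genes, 4 rose, 0 fell and 1 did not pass, a called share of 80% against 41.4% of all genes. Tgif1, a homeodomain corepressor of Smads, read 443.7, 287.6 and 349.7 in ICAM1-negative and 1957.6, 1849.8 and 1833 in ICAM1-positive cells. It rose by 2.41 ± 0.21 (adjusted p = 0.000565), the largest difference of these 5. Ski, a corepressor that binds Smad complexes, read 462.4, 535.5 and 619.9 against 846.1, 1058.2 and 1060.1, a rise of 0.88 ± 0.20 (adjusted p = 0.0188). A second Ski probe set of similar brightness did not pass (0.02 ± 0.26, adjusted p = 0.958), and the mean of both did not pass (0.45, adjusted p = 0.112). Its call was lost without litter 1 (0.0925), 2 (0.105) or 3 (0.0975), without the ICAM1-negative array of litter 1 (0.0617) or 2 (0.0508) and without the ICAM1-positive array of litter 2 (0.0559) or 3 (0.0695). Skil encodes SnoN, a relative of Ski that is itself a TGF-beta target.

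Skil read 2353.9, 2536 and 2342.7 against 4170.1, 3985.1 and 3602.4 and rose by 0.70 ± 0.16 (adjusted p = 0.0191). The call was lost without litter 1 (0.169), 2 (0.0698) or 3 (0.119), without the ICAM1-negative array of litter 1 (0.062) or 3 (0.0554) and without the ICAM1-positive array of litter 1 (0.0699) or 2 (0.0521). Smurf2, a ubiquitin ligase that targets receptors and Smads for degradation, read 1206.5, 1539 and 1445.7 against 2535.4, 3183.6 and 2707.9. Its rise of 1.01 ± 0.19 (adjusted p = 0.00919) missed the threshold without litter 1 (0.0766) or litter 3 (0.0846), and of 2 other probe sets 1 rose (0.97), while the other passed only with the paired block (adjusted p = 0.0499). Smurf1, its paralog, read 303.9, 355.8 and 357.4 against 651.4, 447.9 and 524.4 without overlap, and just missed the threshold (0.66 ± 0.21, adjusted p = 0.0533). With quantile normalization Smurf1 passed (adjusted p = 0.0491), and it also passed without the ICAM1-positive array of litter 2 (0.0481), so it lies at the threshold.

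The Id genes encode helix-loop-helix proteins that lack a DNA-binding region and hold back differentiation factors. Id4 was the only 1 of the 4 that fell. It read 13722.9, 13155.1 and 14587.7 in ICAM1-negative and 3358, 4821.4 and 4277.8 in ICAM1-positive cells, 3.36-fold lower (log2 difference -1.75 ± 0.20, adjusted p = 0.00135). Its other probe sets fell by 1.54 ± 0.16 and 2.51 ± 0.22. Id1 read 499.7, 553.7 and 420.6 against 854.5, 1124.8 and 776.1 and rose by 0.89 ± 0.22 (adjusted p = 0.0245). This call was lost without litter 1 (0.139), 2 (0.0609) or 3 (0.109), without the ICAM1-negative array of litter 1 (0.0666) or 3 (0.0724) and without the ICAM1-positive array of litter 1 (0.0608) or 2 (0.0592).

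Id2 varied more between litters than the other Id genes. It read 2638, 5897 and 2639.2 against 5457.8, 10316.5 and 6190.1, so litter 2 was the brightest in both sorts and the sorts overlapped, while each litter showed a difference of 1.05, 0.81 and 1.23. Without litter as a term Id2 did not pass (1.03 ± 0.42, adjusted p = 0.113), and with litter as a paired block it did (adjusted p = 0.0185). It also passed without litter 2 (0.0269) or without its ICAM1-negative array (0.034), and of its 2 other probe sets 1 rose (1.20 ± 0.26, adjusted p = 0.015). Id3 read 641.8, 855.4 and 822.7 against 1109.1, 1399.2 and 1124.1 without overlap. It missed the threshold (0.65 ± 0.20, adjusted p = 0.0539) and passed with the paired block (adjusted p = 0.0427). Within the 3 litters the change of Id1 exceeded that of Id4 by 2.80, 2.47 and 2.65.

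Promoters are shown for Id2, Id3 and Id4, the Id genes with an entry in the promoter table, because BMP-activated Smads are known to act on this family through GC-rich motifs near their starts. Each run is the 250 bases before the RefSeq start (GRCm38.p6), with the motif GGCGCC, which reads the same on both strands, in capitals. Id2 lies at chr12:25096093-25096342 on the minus strand, Id3 at chr4:136143572-136143821 on the plus strand and Id4 at chr13:48260866-48261115 on the plus strand.
Id2: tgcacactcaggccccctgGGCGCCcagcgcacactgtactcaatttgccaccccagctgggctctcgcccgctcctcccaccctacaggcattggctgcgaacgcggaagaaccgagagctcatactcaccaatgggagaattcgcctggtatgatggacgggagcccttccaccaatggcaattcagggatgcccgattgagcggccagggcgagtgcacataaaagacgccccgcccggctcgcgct
Id3: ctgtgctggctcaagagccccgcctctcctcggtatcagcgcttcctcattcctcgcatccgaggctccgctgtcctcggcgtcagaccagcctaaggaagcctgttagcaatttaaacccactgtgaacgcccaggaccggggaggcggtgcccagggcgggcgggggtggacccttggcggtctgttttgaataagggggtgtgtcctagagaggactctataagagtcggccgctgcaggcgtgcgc
Id4: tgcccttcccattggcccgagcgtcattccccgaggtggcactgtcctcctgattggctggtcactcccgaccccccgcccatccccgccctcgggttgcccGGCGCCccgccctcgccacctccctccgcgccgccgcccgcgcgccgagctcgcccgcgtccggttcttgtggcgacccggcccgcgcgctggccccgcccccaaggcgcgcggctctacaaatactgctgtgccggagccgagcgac

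The motif occurs once in the Id2 window, its first base 231 bases before the start, and once in that of Id4, at 148 bases, and it is not in the Id3 window. So Id4, which fell, and Id2, which was higher in all 3 litters, share it, and Id3 has none in these letters. Promoter entries were found for 30 of the 42 genes, with 40 windows, and 10 windows (25%) of as many genes hold the motif. Over all 32851 windows the share was 9.59%, and the median G and C content was 66.6% for the pathway windows against 52.4%. The genes with the motif are Bmpr1a, Bmpr2, Chrd, Grem1, Id2, Id4, Ski, Smad5, Smurf2 and Tgfbr1, which include genes that rose, fell and did not pass. A match is a sequence description only, since no binding was measured.

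Probe sets of one gene did not always give one value. Of the 40 genes, 27 had more than 1 probe set that passed the filter. Of the 85 probe sets kept, 42 were higher and 8 lower, against 34.9% of all probe sets called in either direction. The 42 include probe sets of Tgfb1, Bmp4, Tgfbr2, Smad7 and Fst kept only with their ICAM1-positive arrays, whose calls are a description. No gene had probe sets called in both directions. Counting a gene by any called probe set favours genes with several, and the share of all genes by that rule was not computed. By it 27 genes were higher and 5 lower, since Tgfb1, Inhbb and Id2 joined the first and Acvr1b and Bmpr2 the second. Tgfb1 joined through a probe set kept only with its ICAM1-positive arrays. With the paired block these counts were 26 and 5, as Tgfb1 and Inhbb dropped out and Id3 came in.

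**Figure D4:**
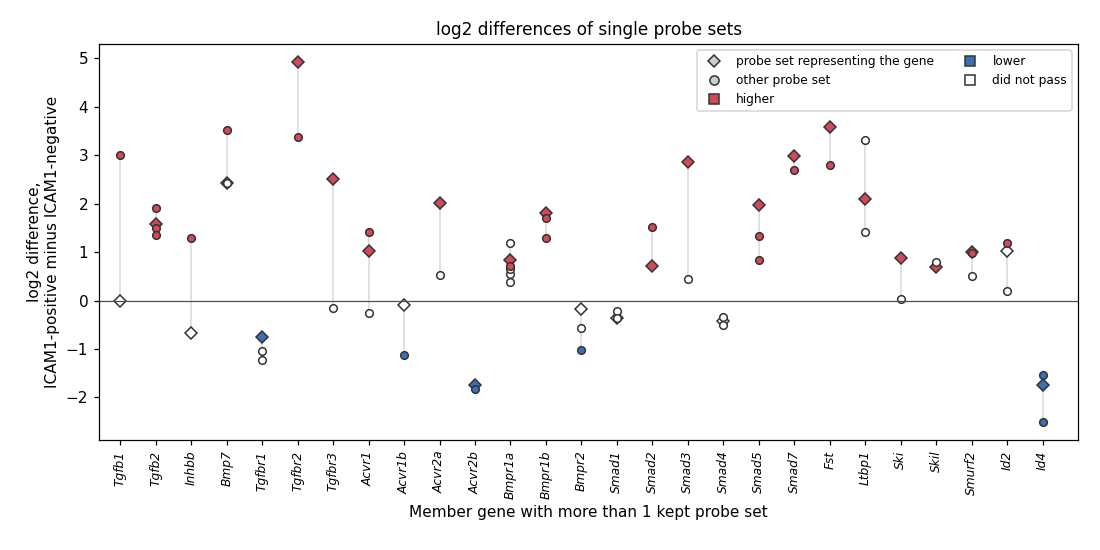
Differences of single probe sets on the log2 scale for the 27 genes with more than 1 kept probe set, with a diamond for the probe set that represents the gene and circles for the others; filled symbols passed the test. Symbols of a gene lie close together for Tgfb2, Acvr2b, Bmpr1b and Smad4, and far apart for Tgfb1, Tgfbr3, Smad3 and Inhbb.

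Beyond the 42 genes, a list of 88 further pathway genes was read in the same way. Of these, 77 had a probe set and 70 passed the filter, and 22 were higher, 6 lower and 42 without a call. Of the 28 called, 7 passed the filter only with the arrays of the sort in which they were high, so their calls are a description. The called genes make 40%, against 41.4% of all genes, with a median of 0.50. The calls lay mainly with antagonists and latency proteins (7 higher and 3 lower of 14) and with targets (8 higher and 2 lower of 17), while further ligands (1 of 14) and receptors (1 of 6) had few.

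**Figure D5:**
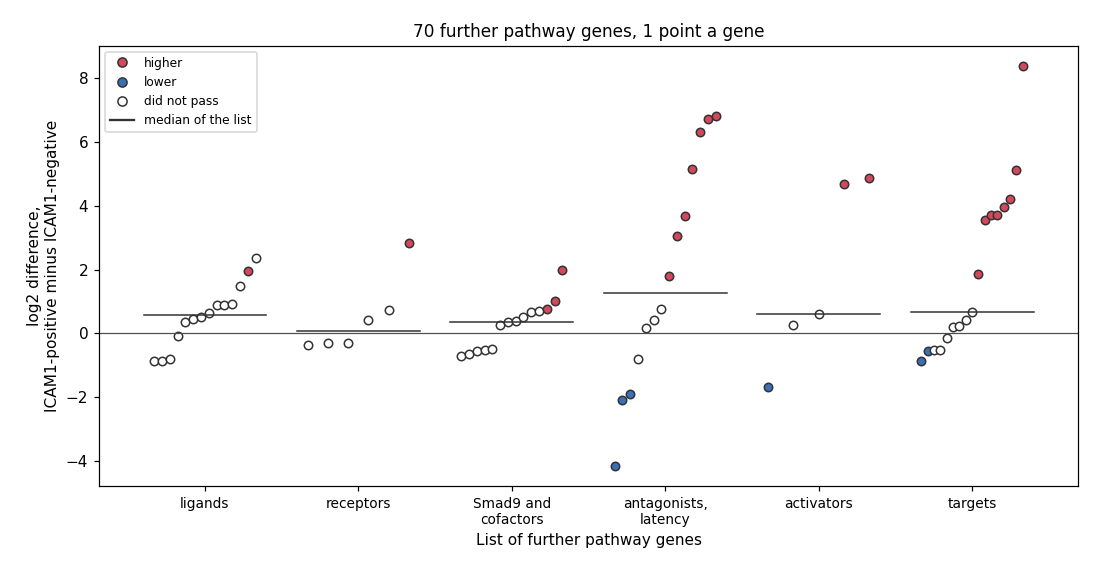
Differences of the 70 further pathway genes on the log2 scale, 1 point a gene, by list, with a line at the median of each list; filled points passed the test. Antagonists and latency proteins run from -4.17 for Dand5 to 6.81 for Sostdc1, and the highest point among the targets is Snai2 at 8.39.

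The secreted inhibitors of the further list moved both ways. Sostdc1, an antagonist of BMP and Wnt ligands, read 8.7, 29.6 and 32.3 in ICAM1-negative and 1974.1, 2346.2 and 2540.1 in ICAM1-positive cells, at least 23.6-fold higher (log2 difference 6.81 ± 0.53). Nbl1, a BMP antagonist of the DAN family, read 3.4, 15.2 and 4.1 against 851.3, 441.3 and 665.4 and was at least 6.54-fold higher (6.72 ± 0.62). Htra1, a secreted protease reported to inhibit TGF-beta family signals, read 25, 10 and 13.6 against 1208.8, 1093.1 and 1286.4 and was at least 12.4-fold higher (6.31 ± 0.36). Dand5, a DAN family antagonist of Nodal, went the other way. It read 177, 234.2 and 264.6 against 9.4, 13.9 and 14.5, at least 2.31-fold lower (-4.17 ± 0.26). These 4 genes are among the 7 kept only with their brighter sort, with fewer than 3 dim arrays above 16 (none for Nbl1 and Dand5), so no p-value is given for them. Bmper, a BMP-binding regulator, read 187.3, 128 and 124.9 against 28.5, 43.2 and 32.4 and was at least 1.50-fold lower (-2.08 ± 0.26, adjusted p = 0.00194). Fstl3, a follistatin relative, read 203.3, 202.3 and 236.5 against 74, 33.2 and 75.1, at least 2.22-fold lower (-1.91 ± 0.36, adjusted p = 0.00899), but not past the threshold without litter 1 (0.0561) or litter 3 (0.0587).

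Some genes that store or release latent TGF-beta passed the test, in either direction. Ltbp4, a relative of Ltbp1, read 99.7, 20.1 and 86.9 in ICAM1-negative and 2561.9, 1153.5 and 2646.9 in ICAM1-positive cells, at least 20.6-fold higher (5.15 ± 0.70, adjusted p = 0.00266). Litter 2 was the lowest of its sort on either side. Among 5 activators 2 rose, 1 fell and 2 did not pass, a share of 60% against 41.4% of all genes; the rising ones were named after their values were seen. Itgav, the integrin alpha V subunit that binds latent TGF-beta, read 430.7, 429.9 and 390.3 against 11118.6, 10516.1 and 10708.3 (4.69 ± 0.16, adjusted p = 0.000124). Thbs1 encodes thrombospondin 1, which can activate latent TGF-beta. It read 90.4, 45.5 and 48.5 against 2005.5, 1425 and 1761, at least 17.8-fold higher (4.87 ± 0.32, adjusted p = 0.000264). Itgb8, the integrin beta 8 subunit that pairs with alpha V to activate TGF-beta, read 176.5, 276.9 and 183.1 against 71.1, 82.3 and 44.8. It was at least 2.16-fold lower (-1.70 ± 0.31, adjusted p = 0.00853), but not without litter 1 (0.0601) or litter 3 (0.0523).

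Among targets, Snai2 and Col7a1 had the largest rises by the brightest probe set of each gene. Tgfbi, a secreted TGF-beta-induced matrix protein named after its values were seen, gave 3.55 by that rule and 6.13, 6.13 and 7.21 by its other probe sets, at least 8.61-fold by the first and 18.2-fold by the highest bound. The probe set at 7.21 was kept only with its ICAM1-positive arrays, so its value is a description. The same holds for the one at 6.13 that read 11.8, 11 and 31.8 in ICAM1-negative cells. Snai2, a zinc finger repressor induced by TGF-beta, read 23.1, 63.2 and 74.9 in ICAM1-negative and 16248.8, 16016.9 and 15935.4 in ICAM1-positive cells, at least 167-fold higher (8.39 ± 0.46, adjusted p = 0.000176). Col7a1, the collagen of anchoring fibrils, read 131.7, 103.8 and 116.4 against 5575, 2433.9 and 4973.2 (5.12 ± 0.35, adjusted p = 0.000291). Both are also known from basal cells of other epithelia, and horizontal basal cell markers rose in the same arrays. A link between these rises was not tested. Pmepa1, a TGF-beta-induced inhibitor of the pathway, was lower. It read 834.5, 772.5 and 874.1 against 576.3, 542.8 and 580.9 (-0.54 ± 0.16, adjusted p = 0.0418), and the call was lost in all 9 fits without a litter or an array (adjusted p = 0.0639 to 0.221) and without the filter (0.0626). Skp2, a ubiquitin ligase subunit, read 732.4, 650.6 and 682.7 against 405.8, 321.4 and 417.8. It fell by 0.86 ± 0.18 (adjusted p = 0.0146), but not without litter 1 (0.115), 2 (0.0519) or 3 (0.0948) or the ICAM1-negative array of litter 1 (0.0522).

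The few calls among the further ligands, receptors and cofactors were named after their values were seen. Bmp1, a protease of procollagen and chordin rather than a signalling ligand, read 148, 129.4 and 121.4 against 686.2, 407.2 and 486.3 (1.96 ± 0.24, adjusted p = 0.00194). Acvrl1, the type I receptor ALK1 best known from endothelium, read 6.8, 19.5 and 48.5 against 136.8, 116.6 and 146.4. It was at least 1.38-fold higher (2.83 ± 0.69), with fewer than 3 negative arrays above 16, so no p-value is given. Its call was lost without litter 1 or 2, without the ICAM1-negative array of litter 2 and without the ICAM1-positive array of litter 1, 2 or 3. Of the 6 endothelial markers measured, 0 passed the test and 5 lay below the array median on every array. The cell source of Acvrl1 was not tested. Tgif2, the paralog of Tgif1, read 393.6, 313.2 and 370.7 against 1402.2, 1421.7 and 1422.6 (1.98 ± 0.17, adjusted p = 0.00052). Tob1, an antiproliferative protein reported to bind Smads, rose by 1.01 ± 0.21 (adjusted p = 0.0137), though not without litter 1 (0.103) or litter 3 (0.0996). Zfyve9, the SARA protein that brings Smad2 and Smad3 to receptors, passed narrowly (0.78 ± 0.23, adjusted p = 0.0449). It did not pass with the paired block (0.0542), with quantile normalization (0.0533), without the filter (0.0619) or without any 1 litter (0.122 to 0.208).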

How the data were processed

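RNA from ICAM1-positive and ICAM1-negative cells of 3 litters was extracted with TRIzol, amplified in 2 rounds and hybridised to Affymetrix mouse arrays of 45101 probe sets, per the labels' protocols. The authors deposited linear intensities. The submitters' processing notes name GCRMA, but the deposited intensity values average 500 on every array after trimming 2% at each end, the form of MAS5-type scaled signals. No detection call was used, and scan batches were not tested. The number of arrays limits the precision.

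Groups came from sample titles. Intensities were taken as log2, 64 control probe sets were left out, and probe sets above an intensity of 16 on at least 3 arrays were kept (38694). A gene was represented by its kept single-gene probe set with the highest mean, named from the platform annotation (34945 probe sets with 1 gene, 932 with several, 9160 with none). All 42 gene IDs were found in the RefSeq table under the same symbol. The sorts were compared by a linear model in limma 3.58.1 under R 4.3.3 (eBayes without a trend, two-sided, no block), with Benjamini-Hochberg adjustment over the probe sets kept and a threshold of 0.05. The script was tested on simulated data.

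Where all 3 dim arrays of a gene lay below the array median, they were set to that median, and the resulting "at least" fold is an estimate that carries no error. The replicate number marks a litter, per the series' design text, so same-numbered sorts are paired. Their deviations from the group means correlated at 0.127, 0.199 and 0.081 in litters 1, 2 and 3, and those of different litters at -0.15 to 0.033. Blocked values are given where they change the call of a printed value.

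All 42 genes are accounted for, with values on each array for those past the threshold; further pathway genes past it are named up to 6 in each direction by size. The genes and lists were chosen with earlier results of these data known. Alternatives were the litter block, quantile normalization, no or a stricter filter (64), low intensities raised, a pseudocount of 16, a variance trend, averaged probe sets, and leaving out each litter or array; counting any called probe set was added after seeing the data. Promoter sequences are from RefSeq (GRCm38.p6), of which only the 250 bases before the start were used.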

Additional observations from a re-analysis of the deposited data

How the results depend on the processing

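The counts of pathway genes past the threshold, and of those that were higher, stayed within 1.5 times of 27 and 24 in the alternatives run. Genes that were lower numbered 3, and 5 with the stricter filter, with averaged probe sets and when any called probe set counts; the cause was not tested. Over the 9 fits without a litter or an array, the pathway genes past the threshold ran from 19 to 26, and the further genes that were lower from 2 to 5. The probe sets past the threshold ran from 7442 to 11681 in all, from 3764 to 5854 higher and from 3678 to 6013 lower. The lowest of these come from fits with 2 arrays a group. Of the 27 pathway genes past the threshold, 18 passed in the same direction under all 17 alternatives. Tgfb1 was the only pathway gene to turn its sign with a call, at 1.49 with averaged probe sets against -0.02. That mean includes a probe set kept only with its ICAM1-positive arrays. Inhbb turned to 0.31 with averaged probe sets and passed in neither fit. With the replicate block for paired litters, 29 pathway genes passed (26 higher and 3 lower), as Id2 and Id3 were gained, with 30 further genes and 14375 probe sets (6899 higher and 7476 lower). Of the further genes named, Zfyve9 lost its call under the block. Quantile normalization left the median of all probe sets at -0.07. Low intensities without detection calls limit the size of every fold against a dim sort.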
